A study of Homo sapiens with 2 samples.

Results

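The FGF receptors, the FGF ligands FGF2, FGF5 and FGF9, listed as expressed, and the FGF binding protein FGFBP1 were described on 2 arrays. Of the arrays, 1 was of erlotinib-resistant and 1 of erlotinib-sensitive lung cancer cells. The genes were given by name and read from every probe set that the platform annotation assigns to a single gene symbol: FGFR1, FGFR2, FGFR3, FGFR4, FGFRL1, FGF2, FGF5, FGF9, FGFBP1 and FRS2. Of these 10 genes, 9 had such a probe set, with 34 probe sets among them, out of 19775 genes on the array. FRS2, the docking protein that links the receptors to RAS signaling, had no such probe set, and no signal of it was read here.

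HCC4006ER is a derivative of HCC4006 that tolerates erlotinib, an EGFR kinase inhibitor. Its selection started at 3 nM and ended at 4 μM of the drug, with 3 months given for it. Single cell clones of HCC4006ER also exist, but the labels name the line and no clone for the array. HCC4006 is the parental human non-small cell lung cancer (NSCLC) line. Both lines carry an exon 19 deletion in EGFR, and the labels give them as erlotinib resistant with an EMT phenotype (HCC4006ER) and erlotinib sensitive with a wildtype phenotype (HCC4006). Both were grown for 48 hours with 10% serum and no added treatment, and RNA of 3 preparations per line was mixed on 1 array, so no replicate, error or test exists and every difference below is a value of these 2 arrays.

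The FGF family signals through receptors with an extracellular ligand-binding part and an intracellular tyrosine kinase. A ligand binds together with heparan sulfate on the cell surface, the receptors pair and phosphorylate each other, and FRS2 then recruits GRB2 and SOS to start the RAS and ERK cascade, which in turn switches on its own inhibitors such as the Sprouty proteins. In lung, FGF10 made by mesenchyme acts on FGFR2 of the epithelium during branching, and FGFR signaling is one of several pathways linked to EMT. The study asked whether such pathways accompany erlotinib resistance, and it tested an FGFR inhibitor together with erlotinib.

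Values are MAS5 signals on a linear scale, as the authors deposited them. A signal counted as above background when it exceeded the 95th percentile of 127 probe sets for olfactory and bitter taste receptors, sensory genes taken here as silent in lung cells, which was 91.6 on the HCC4006ER-labelled array and 96.2 on the HCC4006-labelled array. The probe set brightest by mean log2 signal stood for the gene, and the study's limit of 1.5-fold (0.58 on the log2 scale) was kept. The log2 fold is that of the HCC4006ER-labelled array over the HCC4006-labelled array, and where one side was under background the fold was taken against the background level and is given as "at least". Signals of different probe sets depend on their own probes, so levels were compared only within a probe set and no order of genes by level is given.

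The labels could be checked in part. The 4 probe sets of ZEB1, the EMT transcription factor, read 16.6 to 53.1 on the HCC4006ER-labelled array and 12.8 to 42.5 on the HCC4006-labelled array, all under background, and the epithelial cadherin CDH1 read 11041 on the HCC4006ER-labelled array and 10469 on the HCC4006-labelled array (log2 fold 0.08). Vimentin (VIM) was 1.53-fold higher and the mesenchymal cadherin CDH2 2.05-fold higher. ERBB3, the HER3 receptor that epithelial cells carry, read 1305 on the HCC4006ER-labelled array and 1198 on the HCC4006-labelled array. ZEB1, CDH1 and ERBB3 therefore do not show the pattern of the EMT label, whereas VIM and CDH2 do. Whether the deposited columns are the arrays that the study describes was not settled here. The study lists array folds for genes correlated with ZEB1, and these were not compared with the columns. The arrays are therefore called by their labels, and every direction below holds only as far as those labels do. Of 10 markers of lung and airway epithelium, 8 were above background on each array. EPCAM and KRT18 were nearly equal, MUC1, a mucin of the apical membrane, was the only one past 1.5-fold, at 317 on the HCC4006ER-labelled array and 6315 on the HCC4006-labelled array (19.9-fold lower), and the lung lineage factor NKX2-1 was under background on both. Spiked control transcripts had ratios of 0.892 to 1.43 over 23 probe sets.

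Among the 8 genes above background on at least 1 array, 4 were more than 1.5-fold higher on the HCC4006ER-labelled array (FGFR1, FGFR2, FGFRL1 and FGF5), none was lower and 4 lay within 1.5-fold. The corresponding shares of all genes above background were 8.02% for higher and 11.2% for lower. Among genes whose brighter signal lay in the range of these 8 genes (110 to 1473), 9.07% were higher and 14.9% were lower by that limit; this range was set after the values were seen. The median log2 fold of the 8 genes was 0.52, against -0.04 over all 11848 genes with a fold. The genes were chosen with earlier results of these data known, so the shares and medians are descriptions only. These 4 calls rest on the brightest probe set of each gene. When a gene was averaged over its probe sets above background instead, FGFRL1 alone of the 8 passed 1.5-fold. Counted by probe set, 20 of the 34 were above background on at least 1 array, of which 5 were past 1.5-fold higher and 1 lower, beside 9.31% and 10.2% of all such probe sets on the array. In RNA of whole cultures, fewer cells of a type and less RNA per cell cannot be told apart.

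**Figure D1:**
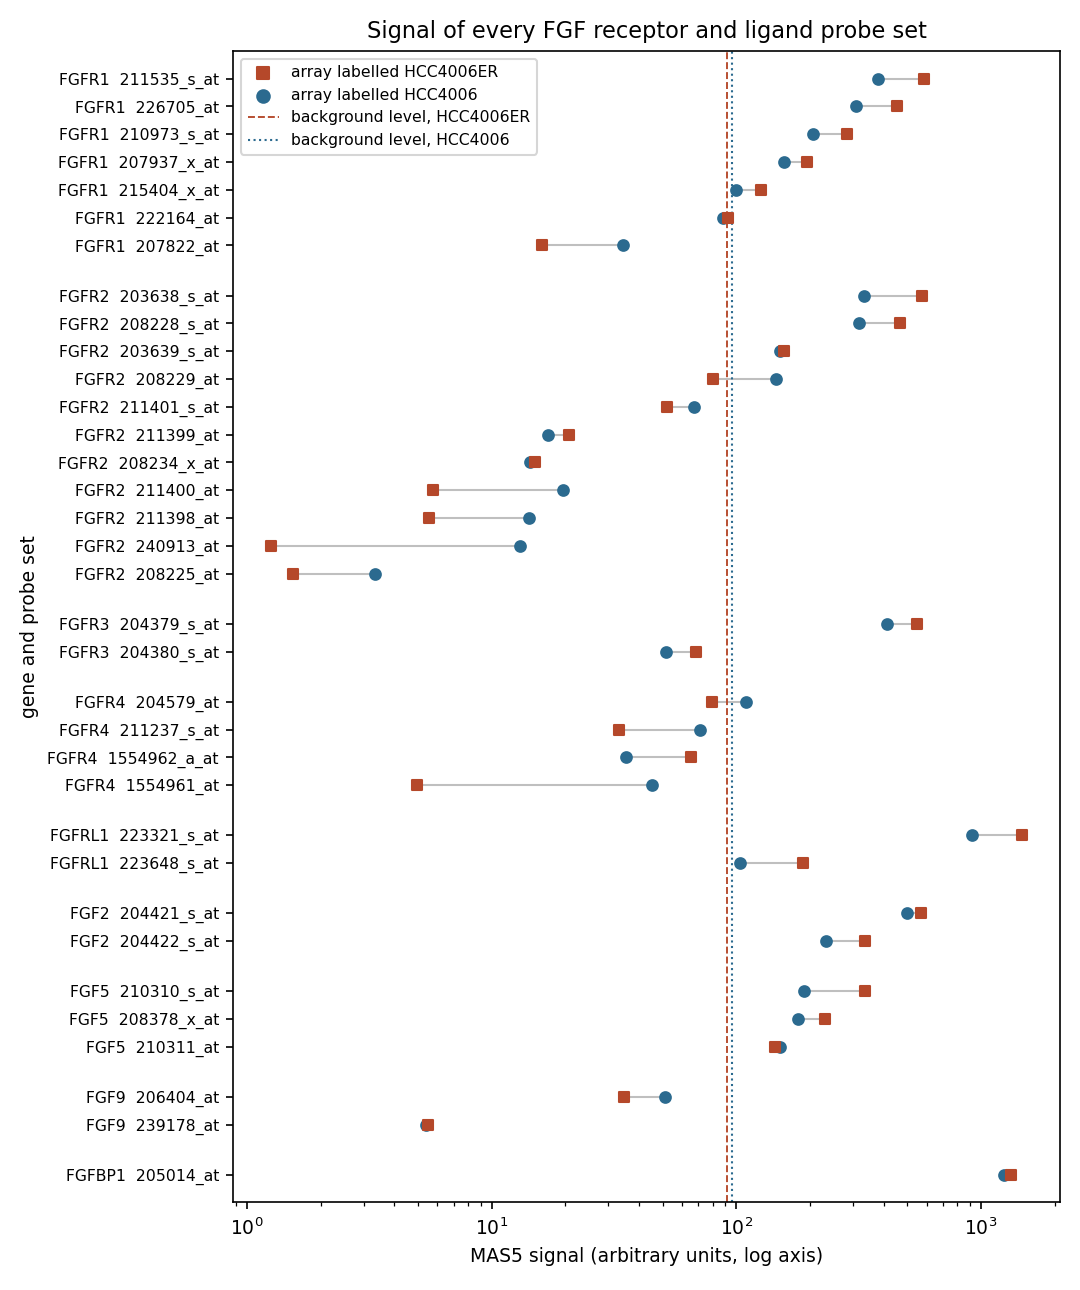
MAS5 signal, on a log axis, of all 34 probe sets of the 9 genes, with squares for the HCC4006ER-labelled array and circles for the HCC4006-labelled array. The vertical lines are the background levels, 91.6 for HCC4006ER and 96.2 for HCC4006. In the FGFR1 and FGFRL1 probe sets right of both lines the square lies to the right of the circle, and 7 of the 11 FGFR2 probe sets lie left of both lines.

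FGFR1 encodes a receptor that mesenchymal cells use widely and that the study also measured by RT-PCR. Its brightest probe set, 211535_s_at, read 587 on the HCC4006ER-labelled array and 378 on the HCC4006-labelled array, a 1.55-fold difference (log2 fold 0.64), just past the limit. Probe set 226705_at read 453 on the HCC4006ER-labelled array and 307 on the HCC4006-labelled array, 1.47-fold higher and just short of it. The other 3 probe sets above background on both arrays read 284, 195 and 126 on the HCC4006ER-labelled array and 205, 156 and 99.8 on the HCC4006-labelled array. All 5 thus lay higher on the HCC4006ER-labelled array, with log2 folds of 0.32 to 0.64 and an SD between them of 0.14. The 2 remaining FGFR1 probe sets were near or under background, at 92.0 and 16.1 on the HCC4006ER-labelled array against 88.2 and 34.4 on the HCC4006-labelled array, and no fold is given for them.

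FGFR2 encodes the receptor that in epithelia is spliced to the form answering to FGF7 and FGF10. Its brightest probe set, 203638_s_at, read 572 on the HCC4006ER-labelled array and 332 on the HCC4006-labelled array, 1.72-fold higher (log2 fold 0.78). Probe set 208228_s_at read 467 on the HCC4006ER-labelled array and 316 on the HCC4006-labelled array, 1.48-fold higher. Probe set 203639_s_at was nearly equal at 157 on the HCC4006ER-labelled array and 151 on the HCC4006-labelled array (log2 fold 0.05). Probe set 208229_at went the other way and read 80.5, which is under background, on the HCC4006ER-labelled array and 145 on the HCC4006-labelled array, at least 1.59-fold lower. The FGFR2 probe sets therefore disagreed, with an SD of 0.38 over the 3 that were above background on both arrays, and none of them could be assigned to a splice form from the annotation used. The direction for FGFR2 turned under some choices of probe set: the log2 fold was -0.64 averaged over all 11 probe sets, 7 of which were under background on both arrays, and -0.67 without probe sets whose name marks a match to several transcripts, which leaves 208229_at as the brightest.

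FGFRL1 encodes a receptor of the family that lacks the tyrosine kinase and is known to bind ligands and heparin. It read 1473 on the HCC4006ER-labelled array and 914 on the HCC4006-labelled array in 223321_s_at, 1.61-fold higher. Its dimmer probe set, 223648_s_at, read 187 on the HCC4006ER-labelled array and 103 on the HCC4006-labelled array, 1.81-fold higher. Both probe sets passed 1.5-fold in the same direction, with log2 folds of 0.69 and 0.86, and FGFRL1 was the only one of the 9 genes of which all probe sets did.

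FGFR3, a receptor recurrently mutated in bladder cancer, lay within 1.5-fold. Its bright probe set, 204379_s_at, read 549 on the HCC4006ER-labelled array and 413 on the HCC4006-labelled array, 1.33-fold apart (log2 fold 0.41), and the other was under background on both arrays. FGFR4, a receptor that in liver responds to FGF19, was above background in 1 of 4 probe sets and on 1 array only. In that probe set, 204579_at, it read 79.3 on the HCC4006ER-labelled array and 110 on the HCC4006-labelled array, at least 1.20-fold lower. The 11 receptor probe sets above background on both arrays, from FGFR1, FGFR2, FGFR3 and FGFRL1, had log2 folds of 0.05 to 0.86. That selection leaves out 208229_at of FGFR2 and 204579_at of FGFR4, which fell under background on the HCC4006ER-labelled array only and read lower there, so the shared direction of the 11 is a description and supports nothing. Probe sets of a gene share its RNA and are no replicates. Where a gene had several, their log2 folds scattered with a pooled SD of 0.27 (5264 genes), and of 0.31 over the probe sets in the signal range of the FGF genes (112 to 1281), a measure that leaves out variation between arrays and cultures.

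**Figure D2:**
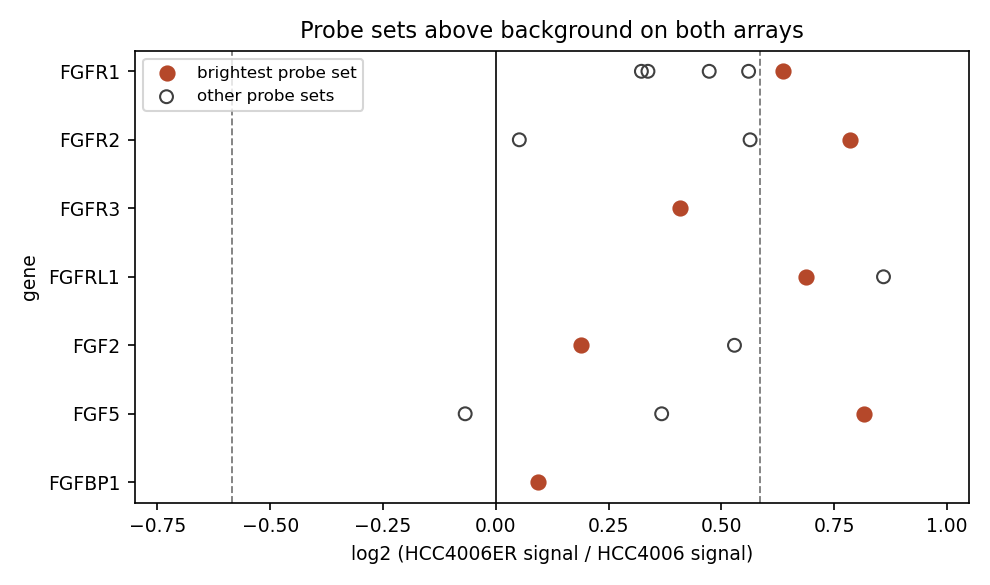
Log2 fold (HCC4006ER over HCC4006, x axis) for the 17 probe sets above background on both arrays, with 1 row per gene; filled points are the brightest probe set and open points the others, and the dashed lines mark 1.5-fold. Of the 17 points, 16 lie right of 0, and the points of FGFR2 and FGF5 are spread widest; 208229_at of FGFR2 and 204579_at of FGFR4, lower and under background on the HCC4006ER-labelled array, are not drawn.

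FGFR2 and FGFRL1 both passed 1.5-fold higher in their brightest probe set, although the FGFR2 probe sets disagreed in direction. The bases before their first transcription start are shown, from RefSeq on the build GRCh38.p14. Each window holds the 250 bases before the start, 5′ to 3′ on the gene's strand. Capitals mark the letters GGGCGG or, on the other strand, CCGCCC, the GC box that SP1 family factors bind. The windows were also searched for CACCTG and its reverse CAGGTG, the E-box core that ZEB factors bind, and for TGANTCA, the AP-1 site. FGFR2 is at chr10:121598445-121598694 on the minus strand and FGFRL1 at chr4:1012214-1012463 on the plus strand.
FGFR2: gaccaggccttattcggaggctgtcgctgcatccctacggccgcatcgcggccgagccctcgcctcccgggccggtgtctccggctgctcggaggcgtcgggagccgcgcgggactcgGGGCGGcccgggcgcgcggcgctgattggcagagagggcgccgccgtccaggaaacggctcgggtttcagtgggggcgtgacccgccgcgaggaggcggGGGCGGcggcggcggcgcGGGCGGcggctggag
FGFRL1: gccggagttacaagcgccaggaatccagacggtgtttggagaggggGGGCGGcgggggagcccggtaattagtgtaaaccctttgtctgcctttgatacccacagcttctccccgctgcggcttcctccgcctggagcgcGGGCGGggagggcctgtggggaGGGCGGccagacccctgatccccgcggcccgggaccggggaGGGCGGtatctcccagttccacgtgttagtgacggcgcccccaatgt
The FGFR2 window held 3 GC boxes and the FGFRL1 window 4, and 42.6% of all 35116 windows of the same length held at least 1. Neither window held the E-box core, which 17.5% of all windows did. The 8 genes with a listed window were FGFR2, FGFR3, FGFR4, FGFRL1, FGF2, FGF5, FGFBP1 and FRS2. Among them FGFR4 alone held the E-box core, and none held the AP-1 letters, found in 6.57% of all windows. FGFR2 has 5 listed starts and only the first was read. A match is a run of letters and not a measured site, and the FGFR1 window was not used here.

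Of the ligands FGF2, FGF5 and FGF9, FGF5 passed 1.5-fold in its brightest probe set, FGF2 lay within it and FGF9 was under background. Averaged over their probe sets, FGF5 and FGF2 had log2 folds of 0.37 and 0.36. FGF2, or basic FGF, is a ligand without a classical secretion signal that many cultured cells make. In its brighter probe set, 204421_s_at, it read 570.3 on the HCC4006ER-labelled array and 500.3 on the HCC4006-labelled array, 1.14-fold apart. In 204422_s_at it read 335 on the HCC4006ER-labelled array and 232 on the HCC4006-labelled array, 1.44-fold apart. Both lay higher on the HCC4006ER-labelled array, and neither passed 1.5-fold.

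FGF5 encodes a ligand known for ending the growth phase of hair. Its brightest probe set, 210310_s_at, read 334 on the HCC4006ER-labelled array and 190 on the HCC4006-labelled array, 1.76-fold higher (log2 fold 0.82). Probe set 208378_x_at read 230.5 on the HCC4006ER-labelled array and 179 on the HCC4006-labelled array, 1.29-fold higher. Probe set 210311_at read 144 on the HCC4006ER-labelled array and 151 on the HCC4006-labelled array (log2 fold -0.07). The 3 probe sets of FGF5 thus ran from nearly equal to past 1.5-fold, with an SD of 0.44. With 210311_at alone, the single FGF5 probe set whose name marks no match to several transcripts, the direction turned.

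FGF9, a ligand made by epithelium and mesothelium in the developing mouse lung, was not detectable above background. Signals were 34.7 and 5.51 on the HCC4006ER-labelled array and 50.9 and 5.41 on the HCC4006-labelled array, all of them below background, and it has no fold. Its selection as an expressed ligand is not borne out by these signals. FGFBP1 encodes a secreted carrier that releases FGFs from the matrix. It had 1 probe set, 205014_at, which read 1323 on the HCC4006ER-labelled array and 1240.5 on the HCC4006-labelled array, a log2 fold of 0.09. FGF5, a ligand that passed 1.5-fold in its brightest probe set only, and FGFBP1, a carrier that did not pass it, are shown as the bases before their first start. FGF5 is at chr4:80266338-80266587 on the plus strand and FGFBP1 at chr4:15938741-15938990 on the minus strand, with capitals for the same GC box.
FGF5: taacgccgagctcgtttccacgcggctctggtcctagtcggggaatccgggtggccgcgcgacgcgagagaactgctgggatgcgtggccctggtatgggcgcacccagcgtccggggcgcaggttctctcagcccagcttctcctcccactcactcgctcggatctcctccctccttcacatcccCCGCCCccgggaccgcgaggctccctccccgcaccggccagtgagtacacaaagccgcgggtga
FGFBP1: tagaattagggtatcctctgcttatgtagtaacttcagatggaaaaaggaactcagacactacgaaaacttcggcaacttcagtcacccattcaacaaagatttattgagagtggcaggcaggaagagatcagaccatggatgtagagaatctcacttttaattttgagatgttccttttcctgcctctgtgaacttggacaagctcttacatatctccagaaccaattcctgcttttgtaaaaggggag
G and C made up 68.8% of the FGF5 window, with 1 GC box, and 40.8% of the FGFBP1 window, with none, while the median over all windows was 58%. In the FGFR2 and FGFRL1 windows the shares were 78.4% and 67.6%. The windows of FGFR3, FGFR4 and FGF2, genes that lay within 1.5-fold, held 8, 7 and 3 GC boxes. Their shares of G and C were 86.8%, 79.6% and 75.2%. A link between these letters and the folds was not tested.

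The genes around the receptors and ligands were taken from 7 lists with 97 genes in all, of which 89 had a probe set and 62 a fold. On the HCC4006ER-labelled array, 7 of the 62 were higher by more than 1.5-fold, 13 were lower and 42 lay within it, with a median log2 fold of -0.09. Under median scaling, 10 were higher and 10 lower. The background shares are the 8.02% and 11.2% given above. Most of the 19 other FGF ligands were not detectable above background: 5 were above background on at least 1 array and 14 on neither, including FGF7 and FGF10, the ligands of epithelial FGFR2. FGF13, which acts inside cells, read 276 on the HCC4006ER-labelled array and 206 on the HCC4006-labelled array, and FGF11, a relative that is not secreted, 195 on the HCC4006ER-labelled array and 249 on the HCC4006-labelled array. FGF19, the ligand of FGFR4, read 31.4 on the HCC4006ER-labelled array, under background, and 139 on the HCC4006-labelled array, at least 1.51-fold lower, a bound just past the limit in its single probe set. The FGF19 call ended with median scaling (log2 fold -0.46) and quantile normalization (-0.52), and FGF19 had no fold with the background at the 99th percentile or with receptor pseudogenes kept in the background set.

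Of the membrane proteins that bind FGF receptors, FLRT2, L1CAM and CDH2 were higher and FLRT3 lower. FLRT2, a transmembrane protein of a family whose members interact with FGFR1, read 7950.2 on the HCC4006ER-labelled array and 534 on the HCC4006-labelled array (14.9-fold higher). Its relative FLRT3 went the other way, with 647 on the HCC4006ER-labelled array and 1579 on the HCC4006-labelled array (2.44-fold lower), in both of its probe sets. The adhesion molecules L1CAM, at 3190 on the HCC4006ER-labelled array and 405 on the HCC4006-labelled array (7.87-fold higher), and CDH2, at 2419 on the HCC4006ER-labelled array and 1181 on the HCC4006-labelled array, are reported to bind FGFR1. NCAM1 was under background on the HCC4006ER-labelled array and barely above it on the HCC4006-labelled array. The endocrine co-receptors KL and KLB and the binding proteins FGFBP2 and FGFBP3 were under background on both arrays.

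Of the heparan sulfate carriers and enzymes, 14 of 17 lay within 1.5-fold, 1 was higher and 2 were lower, beside 8.02% higher and 11.2% lower of all genes above background. The glypican GPC6 read 846 on the HCC4006ER-labelled array and 418 on the HCC4006-labelled array, 2.02-fold higher. The syndecan SDC2 read 45.2, under background, on the HCC4006ER-labelled array and 361 on the HCC4006-labelled array, at least 3.94-fold lower. That bound (log2 fold -1.98) depends on the background level. It was -1.15 with the background at the 99th percentile and -1.22 with receptor pseudogenes kept in the background set, and the call was kept in both. HS3ST2, a sulfotransferase of heparan chains, read 749 on the HCC4006ER-labelled array and 1835 on the HCC4006-labelled array, 2.45-fold lower. The 2 sulfatase and sulfotransferase genes just within the limit, SULF2 and HS6ST2, had log2 folds of -0.57 and -0.56. The median of the list was -0.18.

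Of the adaptors and transmitters downstream of the receptors, 13 of 16 lay within 1.5-fold, 1 was higher and 2 were lower. Of all genes above background, 8.02% were higher and 11.2% lower. The median log2 fold of the list was 0.03. GRB2, the adaptor that FRS2 recruits, read 4725 on the HCC4006ER-labelled array and 4636 on the HCC4006-labelled array, and the phosphatase PTPN11 read 7388 on the HCC4006ER-labelled array and 6737 on the HCC4006-labelled array. CBL, a ubiquitin ligase that tags activated receptors, read 1469 on the HCC4006ER-labelled array and 749 on the HCC4006-labelled array (1.96-fold higher), and 3 of its 4 probe sets above background lay higher. SHC1 read 3354 on the HCC4006ER-labelled array and 5195 on the HCC4006-labelled array (1.55-fold lower), and MAPK3, the ERK1 kinase, read 316 on the HCC4006ER-labelled array and 784 on the HCC4006-labelled array (2.48-fold lower) in its single probe set. The SHC1 call ended with median scaling (log2 fold -0.49). SHC1 and MAPK3 had no value without probe sets whose name marks a match to several transcripts.

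Feedback inhibitors of the pathway, which ERK signaling induces, were lower in 4 of 9 genes above background and higher in 1. SPRY4 read 167 on the HCC4006ER-labelled array and 482 on the HCC4006-labelled array (2.88-fold lower), and SPRY1 read 152 on the HCC4006ER-labelled array and 376 on the HCC4006-labelled array (2.47-fold lower). SPRY4 had 1 probe set, whose name marks a match to several transcripts. SPRY1 had 1 of 2 probe sets above background on both arrays, and its log2 fold averaged over all probe sets was -0.73. DUSP6, the ERK phosphatase, read 979 on the HCC4006ER-labelled array and 1901 on the HCC4006-labelled array (1.94-fold lower), with all 3 of its probe sets lower. SPRED1 read 757 on the HCC4006ER-labelled array and 1321 on the HCC4006-labelled array (1.75-fold lower), with 2 of 3 probe sets above background lower, and its call ended when the 3 were averaged (log2 fold -0.30). DUSP5, another ERK phosphatase, went the other way at 4305 on the HCC4006ER-labelled array and 1961 on the HCC4006-labelled array (2.20-fold higher), and SPRY2 and SPRED2 were nearly equal, with log2 folds of -0.14 and -0.04. The median of this list was -0.37.

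Transcription factors and other targets of the pathway were mixed. ETV1 read 240 on the HCC4006ER-labelled array and 641 on the HCC4006-labelled array, 2.67-fold lower, with all 4 probe sets above background lower. EGR1 read 762 on the HCC4006ER-labelled array and 1361 on the HCC4006-labelled array, 1.78-fold lower. It had no value without probe sets whose name marks a match to several transcripts. FOSL1 read 4018 on the HCC4006ER-labelled array and 2377 on the HCC4006-labelled array, 1.69-fold higher, and 4 of the 7 genes above background, among them ETV4 (log2 fold 0.55), ETV5 (0.20) and CCND1 (-0.09), lay within 1.5-fold. Of the regulators of the receptors' alternative exons, ESRP1, which favors the epithelial form of FGFR2, read 2273 on the HCC4006ER-labelled array and 3647 on the HCC4006-labelled array, 1.60-fold lower in the brighter of its probe sets and lower in both. Its call, the only one of that list, ended with median scaling (log2 fold -0.55). RBFOX2, PTBP1 and MBNL1 had log2 folds of 0.13, -0.03 and -0.04.

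**Figure D3:**
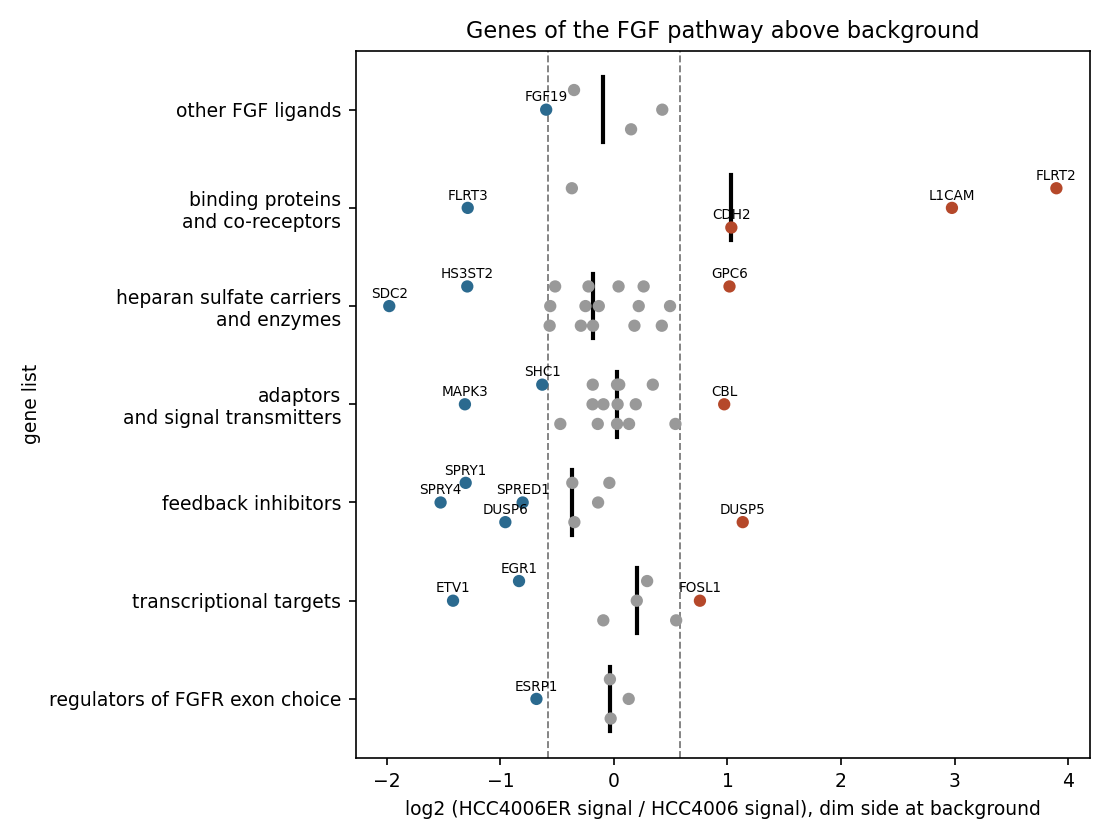
Log2 fold (HCC4006ER over HCC4006, x axis) of the 62 genes with a fold in 7 lists around the FGF receptors, with a dim side set at background. Points are genes, black bars are medians of a list, and the dashed lines mark 1.5-fold. Named points lie past 1.5-fold; FLRT2 lies farthest right and SDC2, which is a bound, farthest left.

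Markers of other cells were read beside these values, since fibroblasts too express FGF2 and FGFR1. Of 10 fibroblast markers, 1 was above background on the HCC4006ER-labelled array and 2 on the HCC4006-labelled array, with summed signals of 1223 on the HCC4006ER-labelled array and 1074 on the HCC4006-labelled array. DCN, LUM, COL1A2, COL3A1 and PDGFRB were under background on both arrays. COL1A1, the marker above background on both, was higher in 1 of 3 probe sets and lower in 2. Of 6 endothelial markers 1 was above background on each array, and of the 4 leukocyte markers measured none was on the HCC4006ER-labelled array and 1 on the HCC4006-labelled array. The part of other cells in the FGF differences was not tested.

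**Figure D4:**
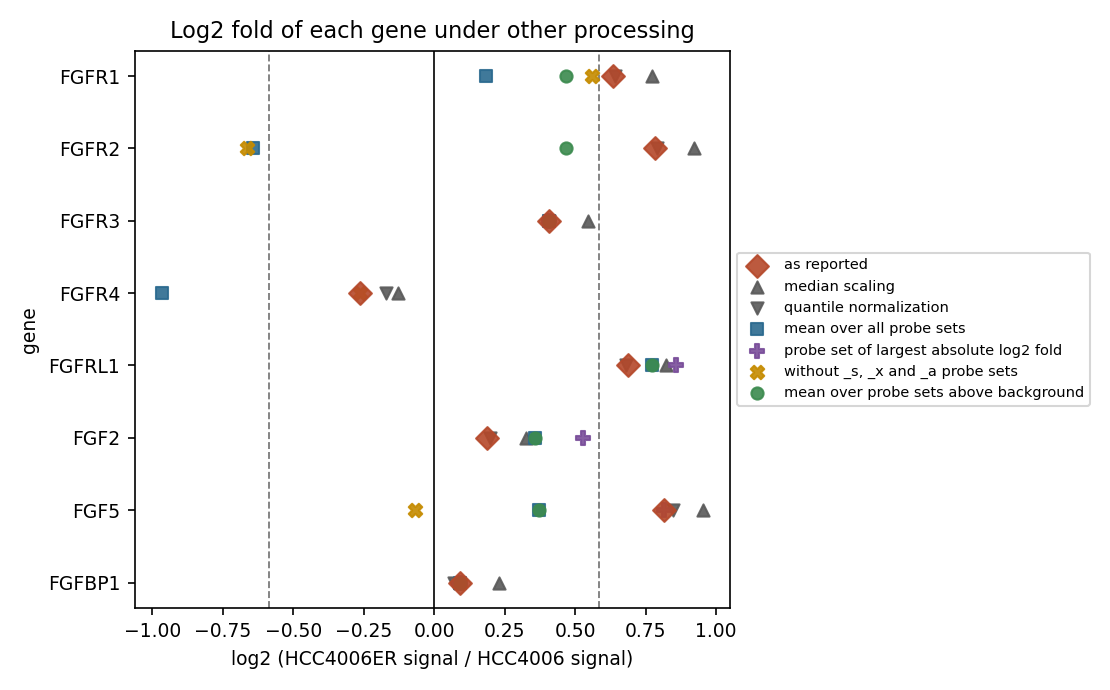
Log2 fold of the 8 genes above background as reported (diamonds) and under 6 other ways of processing, with dashed lines at 1.5-fold. FGFRL1 stays right of the upper line in each setting that gave it a value, FGFR2 and FGF5 cross 0, and FGFR4 stays left of 0.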

How the data were processed

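Each of the 2 cell lines had 1 Affymetrix HG-U133 array. The values deposited by the authors are linear MAS5 signal intensities without detection calls, and GCOS 1.4 is named in the submitters' processing notes; each array has a mean of 500.1 with 2% trimmed at each end. Of 54675 probe sets, 41097 had 1 gene symbol and were used, with symbols updated through RefSeq gene identifiers. Probe sets with several symbols (1801) or not listed (11777) were left out. Background excluded receptor pseudogenes. No p-value was computed, and precision is limited by having 1 array per line.

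The members and lists were chosen with earlier results of these data known. All members were named, and from each list up to 4 genes per direction past 1.5-fold; others are given as ranges or chosen after their values were seen. No likeness of pattern was sought over 2 arrays. The gene step was run on simulated arrays in which bright genes were set 2-fold higher or lower in all their probe sets. That setting does not cover the smaller folds and disagreeing probe sets of the members, so it bears on none of their calls. Work used Python 3.11.15 with pandas 2.3.3, numpy 2.4.6, matplotlib 3.10.9 and scipy 1.17.1. Alternatives were 2 scalings, 3 choices of probe set, 2 background levels, the measured ratio and a 2-fold limit; 2 more, a mean over probe sets above background and a background set with pseudogenes, were added after the data were seen.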

Additional observations from a re-analysis of the deposited data

How the results depend on the processing

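FGFR3, FGFRL1 and FGFBP1 kept their direction and their side of 1.5-fold under every alternative that gave them a value. Averaged over all probe sets, FGFR1 had a log2 fold of 0.18, FGFR2 of -0.64, FGFR4 of -0.97 and FGF5 of 0.37, and 1 member was higher and 2 were lower. Averaged over probe sets above background, FGFR2 had 0.47 and FGF5 0.37, and 1 member was higher. Leaving out the _s, _x and _a probe sets, which can match several transcripts, FGFR2 had -0.67 and FGF5 a log2 fold of -0.068, FGFR3, FGFRL1 and FGF2 had no probe set left, and 0 members were higher and 1 lower. Read from whichever probe set had the largest absolute log2 fold, FGF2 had 0.53, FGFR1, FGFR2 and FGFR4 were read from probe sets under background and had no value, 2 members were higher, and 11 genes of the pathway lists were higher, against 7 as reported. At 2-fold, 0 members were higher, and 7 pathway genes were lower, against 13 as reported. The causes were not tested beyond the probe sets that each setting uses. Scaling to a common median moved each log2 fold measured on both arrays up by 0.14 and changed no call among the members; of all genes past 1.5-fold, 62.6% were then higher, against 41.7% as reported, and the pathway genes stood at 10 higher and 10 lower, with the calls of ESRP1, SHC1 and FGF19 ended. No paired analysis was possible because each cell line had 1 array. Signals near background limit FGFR4, FGF9 and FGF19: 48.8% of the receptor probe sets used for the background lay past 1.5-fold by the measured ratio.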

Other observations

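Among probe sets above background on both arrays, the brightest had the largest log2 fold in FGFR1, FGFR2 and FGF5. In FGFR1 the log2 fold was 0.64 in the brightest probe set and 0.32 to 0.56 in the other 4 above background on both arrays. In FGFR2 it was 0.78, against 0.56 and 0.05, while 208229_at, under background on the HCC4006ER-labelled array, was at least 1.59-fold lower. In FGF5 it was 0.82, against 0.37 and -0.07. In FGFRL1 and FGF2 the dimmer probe set had the larger difference, at 0.86 against 0.69 and 0.53 against 0.19. A reading from the brightest probe set alone thus gives 4 members past 1.5-fold, and a mean over probe sets above background gives 1.

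The FGFR1 and FGFRL1 probe sets above background on both arrays lay higher on the HCC4006ER-labelled array, while FGFR2 probe sets differed in direction. FGFR4 read lower on the HCC4006ER-labelled array, but near background and within 1.5-fold. The feedback inhibitors SPRY1, SPRY4, SPRED1 and DUSP6 and the target genes ETV1 and EGR1 were past 1.5-fold lower on that array. FOSL1 and DUSP5 were past it higher. Of the feedback inhibitors and target genes with a fold, 4 of 9 and 4 of 7 lay within 1.5-fold. These values are from the same 2 arrays and no test relates them.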
